A study of Arabidopsis thaliana with 12 samples.

Results

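CHLM, AT1G74470 and AT5G63290 are the genes of chlorophyll and tetrapyrrole synthesis examined here. They were chosen by name, as probes whose platform annotation lists exactly 1 of these genes, and 3 probes of 3439 met that rule, 1 for each gene. The samples were wild-type Arabidopsis thaliana of the Landsberg ecotype: 6 were kept for 48 h at 20 µE of blue light and 6 for 48 h at 200 µE, where µE is shorthand for a photon flux. No mutation, transgene or other agent is named for either group, and the labels give neither the tissue nor the age of the plants. Each sample is 1 column of intensities in arbitrary units, numbered 1 to 6 within its group. The comparison asks how the level of each transcript differs between bright and dim blue light.

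Chlorophyll and haem are tetrapyrroles made in the plastid from glutamate along a shared path that splits where magnesium or iron is inserted into protoporphyrin IX. On the magnesium branch CHLM, a methyltransferase that uses S-adenosylmethionine, makes the monomethyl ester of Mg-protoporphyrin IX, and the geranylgeranyl reductase CHLP, encoded by AT1G74470, saturates the geranylgeranyl chain to the phytyl tail of chlorophyll and of tocopherol. AT5G63290 is a coproporphyrinogen oxidase-like gene. In Escherichia coli, HemN carries out that oxidation upstream of protoporphyrin IX without oxygen. Whether AT5G63290 has this activity was not tested. Free intermediates of the path are photosensitisers, and plants are known to adjust the path to light.

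The 2 groups differed in the shape of the whole distribution, which touches every value below. The column median lay between 0.401 and 0.574 units at 20 µE and between 0.171 and 0.218 at 200 µE, whereas the column mean lay between 0.814 and 1.04 over all 12. Values at exactly 0 made up 12.4 to 18.3% of a column. Each gene is therefore given on several scales: the deposited units, multiples of the column median, the percentile rank among the 3439 probes of its column, and log2 values after quantile normalisation, which gives all columns the same distribution. A rank places 1 probe within its column and does not compare amounts of transcript between genes. Within a group, columns 1 and 2, 3 and 4, and 5 and 6 deviated together, so each such couple was also averaged and counted once. The labels do not say whether columns came from separate plants, so p-values measure a spread that may be partly technical.

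CHLM had a lower deposited intensity in every bright-light column than in any dim-light column. Its rank and its multiple of the column median did not separate the groups. Its multiple of the column mean did, but how many of all features do so on that scale was not computed. At 20 µE it measured 0.818 and 0.797 units in columns 1 and 2, 1.29 and 1.22 in columns 3 and 4, and 0.471 and 0.504 in columns 5 and 6. At 200 µE it measured 0.325, 0.311, 0.295, 0.279, 0.333 and 0.288 units in columns 1 to 6. The 200 µE columns were thus all alike and all low, while the 20 µE columns fell into 3 couples at different heights. The mean over couples was 0.851 ± 0.386 units (SD, n = 3 couples) at 20 µE and 0.305 ± 0.016 at 200 µE. Of the 1561 tested features, 43.5% were lower at 200 µE without overlap on this scale, so the separation of CHLM is common among them.

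**Figure D1:**
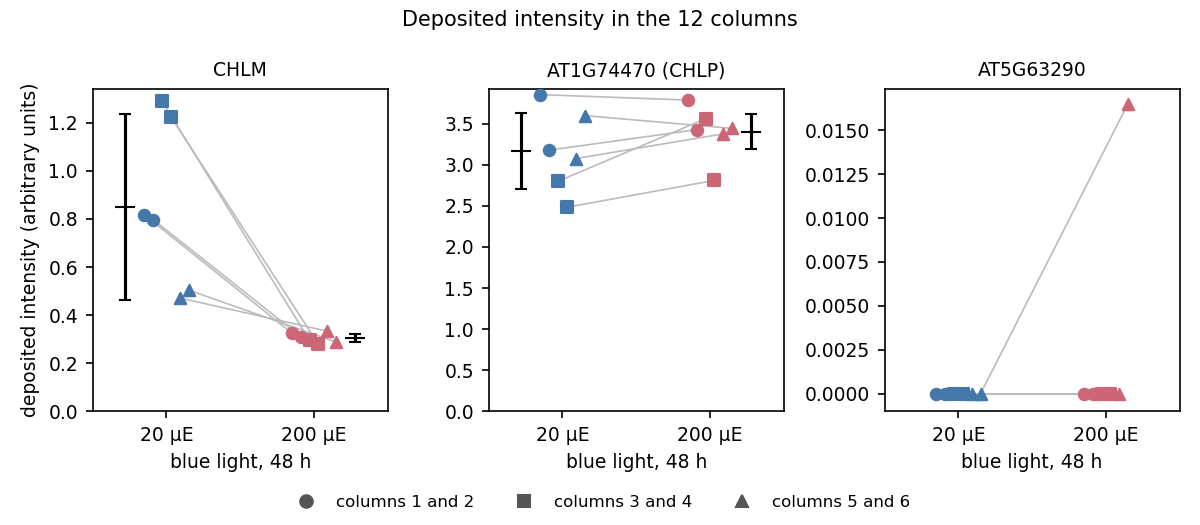
Deposited intensity (arbitrary units, vertical axes differ) of CHLM, AT1G74470 (CHLP) and AT5G63290 at 20 and 200 µE; each point is a column, its shape the couple, grey lines join columns of the same number, and black bars are the mean ± SD of 3 couple means (not drawn for AT5G63290). CHLM lies between 0.279 and 0.333 units at 200 µE, below all 20 µE columns, AT1G74470 overlaps between the groups, and AT5G63290 is at 0 in 11 columns.

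Without normalisation the log2 change of CHLM was -1.38 ± 0.25 (SE over 12 columns), and it was lower at 200 µE in all 6 same-numbered pairs. It passed limma's test with all 12 columns (adjusted p = 0.00025) and again when couples were averaged first (adjusted p = 0.017). On that scale 68.3% of the tested features passed as lower with 12 columns and 57.8% with couples averaged. The median change of all tested features was -1.46, slightly below that of CHLM. These figures include features with zeros, for which a low positive value of the column stands in. Among the 1179 features above 0 in every column the median change was -1.02, less negative than that of CHLM. Of these, 38.9% had a more negative change than CHLM. Among the 235 of these features in the same intensity class as CHLM, from an equal division into 5 classes, the median change was -1.24, with quartiles of -1.93 and -0.51. The change of CHLM on the deposited scale was therefore within the range of the features of its own intensity.

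Relative to the column median, CHLM behaved differently from couple to couple. At 20 µE it stood at 1.52 and 1.47 times the column median in columns 1 and 2, at 2.30 and 2.14 times in columns 3 and 4, and at 1.16 and 1.26 times in columns 5 and 6. At 200 µE the multiples were 1.49 and 1.45, then 1.48 and 1.40, then 1.95 and 1.69. Columns 1 and 2 thus hardly differed between the light levels, columns 3 and 4 were lower in bright light and columns 5 and 6 were higher. After median centring the log2 change was -0.02 ± 0.19 (SE; limma, adjusted p = 0.93 with 12 columns and 0.96 with couples averaged). In multiples of the column mean CHLM did not overlap between the groups, from 0.524 to 1.25 at 20 µE and from 0.287 to 0.409 at 200 µE. The share of all features without overlap was not computed on that scale.

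The rank of CHLM within the column showed the same division. Its percentile rank at 20 µE was 66.5 and 65.5 in columns 1 and 2, 82.2 and 80.0 in columns 3 and 4, and 56.0 and 59.3 in columns 5 and 6. At 200 µE it was 60.9, 59.3, 60.2, 58.6, 66.9 and 62.8. The groups overlapped, and the mean rank differed by -6.80 points (200 minus 20 µE), with 4 of 6 pairs lower and 2 higher. An exact permutation test of the 6 against 6 columns, two-sided, gave p = 0.201, and 0.201 again after Benjamini-Hochberg adjustment over the 3 genes. With couple means the exact p was 0.60, where 0.10 is the smallest that 3 against 3 can give.

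**Figure D2:**
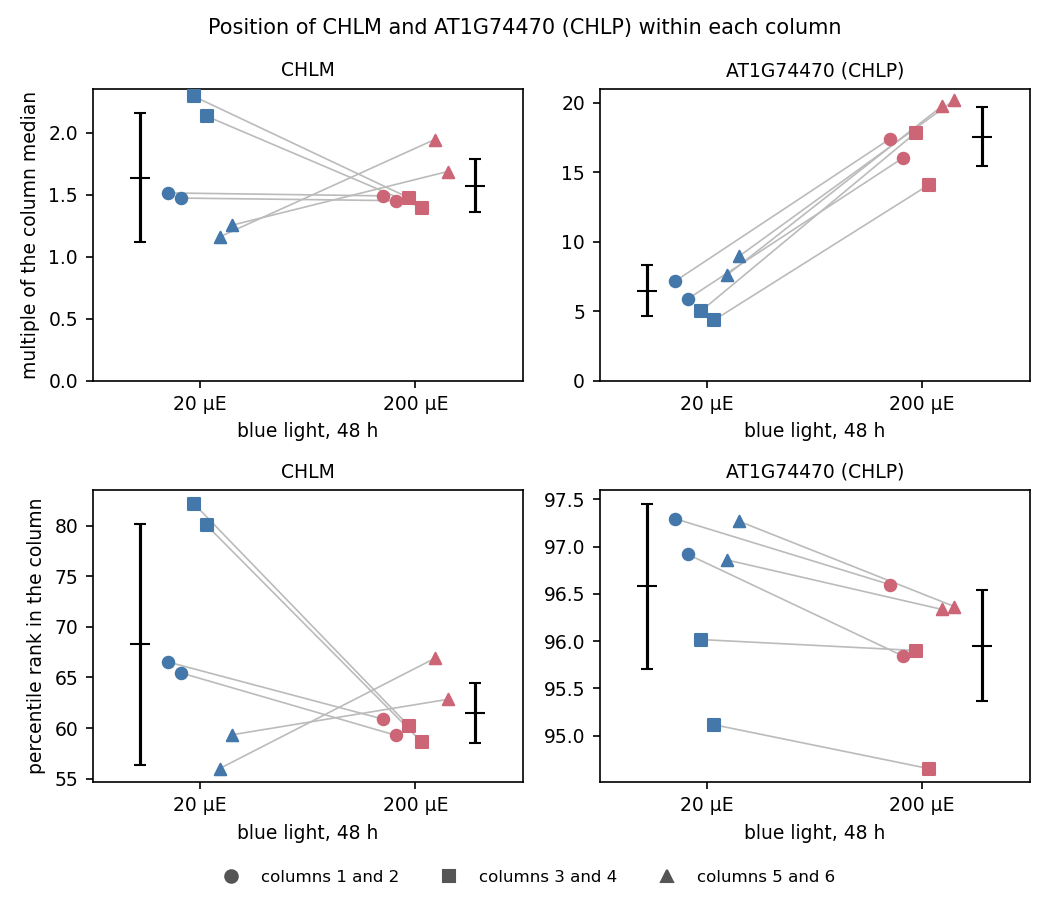
Multiple of the column median (upper panels) and percentile rank among 3439 probes (lower panels, axes do not start at 0) of CHLM and AT1G74470 (CHLP) by light level; each point is a column, shapes mark couples, grey lines join columns of the same number, and black bars are the mean ± SD of 3 couple means. CHLM is lower in bright light in columns 3 and 4 and higher in columns 5 and 6, and AT1G74470 stands at 4.33 to 8.96 medians at 20 µE and 14.1 to 20.2 at 200 µE with ranks that overlap.

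After quantile normalisation CHLM had a log2 value of -0.97 to -0.92 in columns 1 and 2 at 20 µE, -0.23 to -0.10 in columns 3 and 4, and -1.40 to -1.25 in columns 5 and 6. At 200 µE all 6 columns lay between -1.29 and -0.91. The groups overlapped, while 32.7% of the tested features showed no overlap on this scale. The log2 change was -0.34 ± 0.22 (SE), with a 95% interval from -0.83 to 0.14, and did not pass over 12 columns (limma, adjusted p = 0.23), where 49.5% of the features did. Over couple means the interval ran from -1.21 to 0.52 (adjusted p = 0.51), and 20.6% of the features passed. No difference was thus shown on this scale, and the intervals still hold changes beyond -0.5.

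The normalised change of CHLM depended on the couples. Without columns 5 and 6 of both groups it was -0.67 and passed (limma, adjusted p = 0.036), along with 30.3% of the features as lower. Without columns 3 and 4 it was 0.03 ± 0.13 (SE; adjusted p = 0.95), close to 0, and without columns 1 and 2 it was -0.38 (adjusted p = 0.43). The spread of CHLM among columns was itself unequal: the SD of its normalised log2 values was 0.53 at 20 µE and 0.14 at 200 µE. The ratio of 3.84 was above that of 88.6% of the 1179 features above 0 throughout, whose median ratio was 1.63. Within a couple the deposited values at 20 µE lay at most 0.065 units apart, against a range of 0.471 to 1.29 units over all 6 columns.

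AT1G74470, which encodes CHLP, was among the brightest probes in both groups, and its deposited intensity overlapped between them. At 20 µE it measured 3.85, 3.18, 2.80, 2.48, 3.08 and 3.60 units in columns 1 to 6. At 200 µE it measured 3.79, 3.43, 3.56, 2.81, 3.38 and 3.44 units. Column 4 was the lowest in both groups and column 1 the highest in both. The mean over couples was 3.16 ± 0.462 units (SD, n = 3 couples) at 20 µE and 3.40 ± 0.211 at 200 µE.

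Pair by pair, the deposited intensity of AT1G74470 at 200 µE was between 0.957 and 1.27 times that at 20 µE, higher in 4 of 6 pairs. The log2 change on this scale was 0.11 ± 0.15 (SE), with a 95% interval from -0.22 to 0.45 (limma, adjusted p = 0.51 with 12 columns and 0.75 with couples averaged). Of the 1179 features above 0 in every column, 82.4% had a more negative change. In the brightest of the 5 intensity classes, with 236 features and AT1G74470 among them, the median change was -0.04 with quartiles of -0.58 and 0.44, so that a deposited level near its dim-light value was common among bright features.

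**Figure D3:**
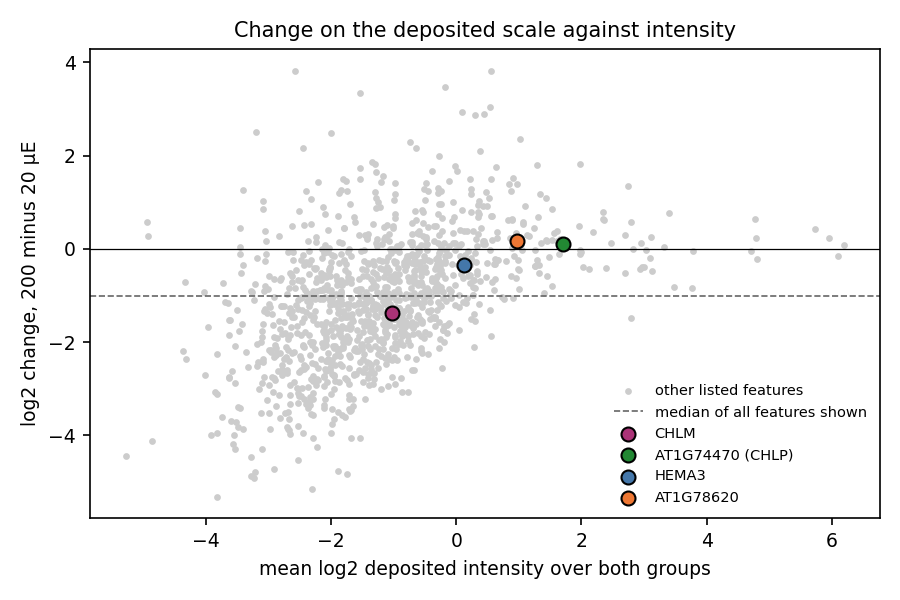
Log2 change on the deposited scale (200 minus 20 µE) against the mean log2 deposited intensity over both groups for the 1179 listed features above 0 in all columns; grey points are other features, coloured points the named genes, and the dashed line is the median change of -1.02. Dimmer features lie lower, CHLM sits near the middle of the cloud at -1.38, and AT1G74470 lies among the bright features near 0.

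Set against the column median, AT1G74470 was higher in bright light in every column. It stood at 7.14, 5.88, 4.98, 4.33, 7.57 and 8.96 times the median in columns 1 to 6 at 20 µE. At 200 µE the multiples were 17.4, 16.0, 17.8, 14.1, 19.7 and 20.2. The groups did not overlap, which was also true, in the same direction, of 24.0% of the tested features. The log2 change after median centring was 1.47 ± 0.19 (SE) and passed with 12 columns (limma, adjusted p = 2.6e-05) and with couples averaged (adjusted p = 0.0079). As higher, 32.7% of the features passed on that scale with 12 columns and 24.0% with couples averaged. In multiples of the column mean the groups overlapped, from 2.39 to 4.03 at 20 µE and from 2.90 to 4.25 at 200 µE.

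In rank AT1G74470 was slightly lower at 200 µE in each same-numbered pair. The percentile rank at 20 µE was 97.3, 96.9, 96.0, 95.1, 96.9 and 97.3 in columns 1 to 6, where 93 to 168 probes were brighter. At 200 µE it was 96.6, 95.8, 95.9, 94.7, 96.3 and 96.4, and 117 to 184 probes were brighter. The groups overlapped, with a mean difference of -0.63 points (exact permutation test over 6 against 6 columns, two-sided, p = 0.199, and 0.201 adjusted over the 3 genes). That test is unpaired. With the light level exchanged only within same-numbered pairs the exact p was 0.031, the smallest that 6 pairs can give, and 0.047 adjusted over the 3 genes. That adjustment counts an equal p of AT5G63290, whose rank mostly follows the number of zeros in the column. The adjusted p is under the threshold only with that gene counted. Columns of a couple count separately in both, and with couple means the unpaired exact p was 0.30.

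The quantile-normalised log2 change of AT1G74470 was -0.22 ± 0.13 (SE), with a 95% interval from -0.51 to 0.08, and missed the threshold with 12 columns (limma, adjusted p = 0.21) and with couples averaged (adjusted p = 0.44). Same-numbered columns varied together, and once the number was entered as a replicate block the same change had a SE of 0.056 and passed (adjusted p = 0.022), as did 29.3% of the features as lower. The pair differences ranged from -0.37 to -0.02, all 6 in the same direction. With couple means compared pair by pair it did not pass (adjusted p = 0.17). Without column 4 at 20 µE, the dimmest for this gene, the change was -0.31 and passed (adjusted p = 0.046), along with 394 of the 1561 features as lower. No direction is given for AT1G74470, because it was lower after quantile normalisation and higher both without normalisation and after median centring.

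**Figure D4:**
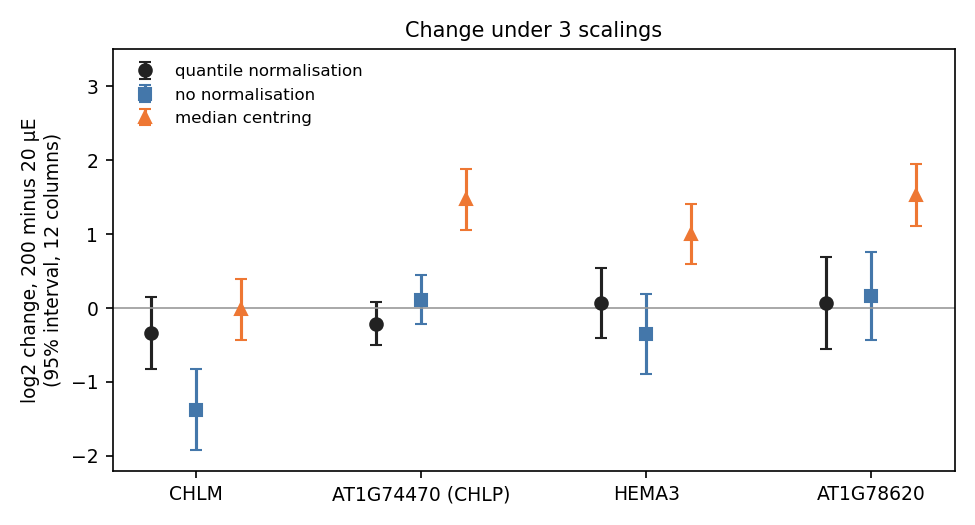
Log2 change (200 minus 20 µE) with its 95% interval from limma over 12 columns for CHLM, AT1G74470 (CHLP), HEMA3 and AT1G78620 under quantile normalisation, no normalisation and median centring. AT1G74470 moves from -0.22 through 0.11 to 1.47, and CHLM from -0.34 to -1.38 and -0.02.

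AT5G63290 gave hardly any signal. Every 20 µE column and columns 1 to 5 at 200 µE list it at 0, and it measured 0.0165 units in column 6 at 200 µE. That value exceeded 3.99% of the values above 0 in its column, and column 5, the other member of its couple, was at 0. The gene is 1 of 46 tested features listed at 0 in exactly 11 columns. Another 116 were at 0 in all 12. No fold is given against a group listed at 0.

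The percentile rank of AT5G63290 was 6.19 to 7.17 at 20 µE, 8.29 to 9.15 in columns 1 to 5 at 200 µE and 20.3 in column 6. Tied zeros share 1 rank, set by the share of zeros in the column, which was larger at 200 µE in every column. The ranks of the groups therefore did not overlap (exact permutation test over 6 against 6 columns, two-sided, p = 0.0022, the smallest it can give, and 0.0065 adjusted over the 3 genes), and 11 of the 12 ranks reflect nothing but the number of other zeros. The mean rank was 4.08 points higher at 200 µE, or 2.14 points without column 6 there. After quantile normalisation the 11 zeros had the same log2 value of -6.24 and column 6 at 200 µE had -4.22 (limma, log2 change 0.34 ± 0.33 SE, adjusted p = 0.44 with 12 columns and 0.50 with couples averaged). Without normalisation and after median centring its fitted change compares the floors that stand in for the 11 zeros. No difference in AT5G63290 was detectable at this signal.

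Of 70 genes in lists for tetrapyrrole synthesis and breakdown (53), geranylgeranyl supply (10) and tocopherol synthesis (7), 5 had a probe of their own: CHLM, AT1G74470, AT5G63290, HEMA3 and AT1G78620. None of the 5 passed after quantile normalisation with 12 columns (limma; 0 at an unadjusted p under 0.05) or with couples averaged, where 49.5% and 20.6% of all tested features passed. HEMA3 belongs to the family of glutamyl-tRNA reductases, which catalyse the first committed step of the path. At 20 µE it measured 1.52 and 1.44 units in columns 1 and 2, 1.83 and 1.67 in columns 3 and 4, and 0.711 and 0.740 in columns 5 and 6. At 200 µE it measured 0.907, 0.870, 1.12, 1.01, 0.966 and 0.951 units. HEMA3, like CHLM, was thus lowest in columns 5 and 6 of the dim group and more even at 200 µE. Its normalised log2 change was 0.07 ± 0.21 (SE; limma, adjusted p = 0.88), negative in columns 1 to 4 and positive in columns 5 and 6. With columns 5 and 6 of both groups left out the change was -0.32 and passed (limma, adjusted p = 0.029), as did 30.3% of the features as lower.

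AT1G78620, taken into the tocopherol list from background knowledge, showed the same drop in columns 5 and 6 at 20 µE. It measured 2.69, 2.65, 2.32, 2.20, 1.05 and 1.03 units in columns 1 to 6 at 20 µE and 2.28, 2.13, 2.15, 2.45, 1.91 and 1.60 at 200 µE. The groups overlapped, and the normalised log2 change was 0.07 ± 0.28 (SE; limma, adjusted p = 0.93). With array weights it was -0.45 and passed (limma, adjusted p = 0.018), along with 35.4% of the features as lower, and without columns 5 and 6 it was -0.32 (adjusted p = 0.059). Under median centring HEMA3 and AT1G78620 had log2 changes of 1.01 ± 0.19 and 1.52 ± 0.19 (SE; limma, adjusted p = 0.00036 and 2.3e-05). Both also passed with couples averaged (adjusted p = 0.027 and 0.0079). As higher, 32.7% of the features passed on that scale with 12 columns and 24.0% with couples averaged. Without normalisation the changes of HEMA3 and AT1G78620 were -0.35 and 0.17, and neither passed. Over the 12 normalised columns, which share couples, the Pearson correlation of CHLM was 0.72 with HEMA3, 0.43 with AT1G78620 and -0.26 with AT1G74470.

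Another 4 probes listed a pair of genes each, all from the tetrapyrrole list, so that no single gene can be named from them. The probe shared by both 5-aminolevulinate dehydratase genes, whose enzyme joins aminolevulinate molecules early in the path, was lower at 200 µE without overlap on the deposited, median, rank and normalised scales. It measured 0.594 to 1.38 units at 20 µE and 0.033 to 0.214 at 200 µE. Its normalised log2 change of -1.62 ± 0.41 (SE) passed with 12 columns (limma, adjusted p = 0.0071) but not with couples averaged (adjusted p = 0.13). Of all tested features, 26.3% passed as lower with 12 columns. The share lower without overlap was 43.5% on the deposited scale, 15.3% in multiples of the median and 17.1% after normalisation. For the rank that share was not computed, and all these scales rest on the same 12 columns. Without normalisation the change of this probe was -2.89 and passed with 12 columns (limma, adjusted p = 0.00010) and with couples averaged (adjusted p = 0.0056). As lower, 68.3% and 57.8% of the features passed there. After median centring it was -1.53 and passed with 12 columns (adjusted p = 0.0055), as did 571 of the 1561 features as lower, but not with couples averaged (adjusted p = 0.052). The probe shared by both uroporphyrinogen decarboxylase genes measured 0.611 to 1.26 units at 20 µE and 0.355 to 0.575 at 200 µE, with a normalised log2 change of -0.06 ± 0.19 (SE; adjusted p = 0.86). Without normalisation it was -0.99 and passed (limma, adjusted p = 0.00085, and 0.035 with couples averaged), where 68.3% and 57.8% of the features passed as lower. After median centring the change of this probe was 0.37 (limma, adjusted p = 0.11). A pair of probes for the light-harvesting-like LIL3 genes, whose proteins bind geranylgeranyl reductase, had normalised log2 changes of 0.24 ± 0.58 and 0.16 ± 0.09 (SE; adjusted p = 0.82 and 0.17). The first was uneven within a couple, at 0.112 units in column 5 and 0.883 in column 6 at 20 µE, and measured 0.081 to 0.309 at 200 µE. The second measured 1.01 to 1.46 units at 20 µE and 0.845 to 1.38 at 200 µE. After median centring the log2 changes of these probes were 0.18 and 1.10 (limma, adjusted p = 0.73 and 3.6e-05), and without normalisation -1.18 and -0.26 (adjusted p = 0.041 and 0.18). With couples averaged the change of 1.10 passed (adjusted p = 0.014) and that of -1.18 did not (adjusted p = 0.062). As higher after median centring 32.7% of the features passed with 12 columns and 24.0% with couples averaged. As lower without normalisation the shares were 68.3% and 57.8%.

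Over the 12 normalised columns the genes most like CHLM, among 507 others with a probe of their own and no zero, were AT2G21960 (Pearson r = 0.95), AT3G44020 (0.95) and OTP70 (0.92), a pentatricopeptide repeat protein. AT2G21960 measured 0.263 to 1.01 units at 20 µE and 0.0764 to 0.151 at 200 µE, AT3G44020 1.75 to 3.51 and 2.36 to 2.86, and OTP70 0.641 to 1.69 and 0.466 to 0.723. Most like AT1G74470 were PSAN, the N subunit of photosystem I (0.84), AT4G31930 (0.84) and AT5G19940 (0.81). The highest correlations with AT5G63290 were 0.62 for AT5G06410, 0.60 for AT4G38020 and 0.57 for AT3G54210, and they rest on its 1 column above 0. These correlations describe likeness over columns that share couples.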

How the data were processed

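Total RNA of 12 samples was measured on arrays, of which the deposited value table was used. The table deposited by the authors holds linear intensity with no stated unit. How it was background-corrected and scaled is not given in the sources used here, and the columns run from 0 to at most 100. The number of arrays limits the precision. All 12 columns were mapped to samples by their labels, and no columns were identical.

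Probes were named from the platform annotation (692 with 1 gene, 870 with several, 1877 not listed and so unnamed here) and a TAIR10.1 gene table, which held 690 of the 692 identifiers. No coordinates are given, because no build is named for the array. In each column, values under the 1st percentile of its positive values were raised to it. Log2 values were quantile-normalised over 3439 probes, and 1561 listed features (691 genes and 870 shared probes) were tested as 200 minus 20 µE by two-sided tests in limma 3.58.1 (R 4.3.3; lmFit then eBayes), with Benjamini-Hochberg adjustment over all features and a threshold of 0.05. Percentile ranks were compared by exact permutation (scipy 1.17.1). Both were tested on simulated data. For the rank test these were independent columns without couples or tied zeros, so its behaviour with either was not tested.

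Deviations from the group means correlated at 0.17 to 0.55 between same-numbered columns of the groups (6 pairs). Differently numbered columns of the groups were not compared in this way. The main tests are unpaired, and the replicate number was entered only in alternative fits and in a paired rank test. Within groups the deviations correlated at 0.26 to 0.82 inside couples and at -0.61 to 0.16 between couples. The genes, lists and tests were chosen with earlier results of these data known. Named genes are the 3 members, list genes with a probe of their own, and the 3 genes most correlated with each member. Probes shared by several list genes were added after the values were seen. Sequences were not used here.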

Additional observations from a re-analysis of the deposited data

Results flagged for a closer look

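The check covered 52 sets of 6 values (8 probes besides AT5G63290 and AT5G63290 itself, as intensity, normalised log2 value and percentile rank). Of these, 3 held a column far from the other 5, where 1 in 20 would be 2.6. The sets repeat the same columns on 3 scales and are not independent, so 2.6 is not a valid expectation. Where the other 5 values are equal, any differing value is flagged. All 3 are the same measurement, AT5G63290 in column 6 at 200 µE. It was 0.0165 units where the other columns of the group were at 0, -4.22 after normalisation where the others were at -6.24, and at percentile rank 20.3 where the others ranked 8.29 to 9.15. Its part in the group difference can be read from the values without it: the normalised change was then 0.00 and the rank difference 2.14 points.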

How the results depend on the processing

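CHLM did not pass over 12 columns after quantile normalisation (log2 change -0.34). It passed without normalisation (-1.38, also over couple means), with array weights (-0.32) and when columns 5 and 6 were left out (-0.67). Its change was 0.03 without columns 3 and 4. Leaving out 1 column gave -0.47 to -0.20. AT1G74470 (CHLP), at -0.22, passed with a replicate block (-0.22), with array weights (-0.40), without columns 3 and 4 of both groups (-0.31) and without column 4 at 20 µE. Leaving out 1 column gave -0.31 to -0.15. It reversed without normalisation (0.11, also over couple means) and after median centring (1.47, also over couple means). Of the 1561 features, 553 passed as lower with array weights, 309 without columns 3 and 4 of both groups and 394 without column 4 at 20 µE. AT5G63290, at 0.34, reversed to -2.07 without normalisation and to -0.71 after median centring, with columns and with couple means. The first passed in both (adjusted p = 6.5e-05 and 0.0016) and the second with 12 columns (0.048; 0.074 for couple means). There its 11 zeros take the floor of each column, which ranged from 0.0040 to 0.0465 units. The rank difference of AT1G74470 of -0.63 points passed with the replicate block (-0.63, exact permutation test, adjusted p = 0.047). It did so only because the adjustment counts the equal p of AT5G63290, whose ranks mostly reflect the number of zeros. The rank difference of AT5G63290 of 4.08 points could not pass over couple means (exact permutation test, p = 0.10, adjusted p = 0.30). There 0.10 is the smallest p that 3 against 3 can give, so this fit decides nothing. The number of features passing, 772, became 1179 without normalisation, 333 among 691 genes, 1663 over all probes, 322 for couple means, 242 when these were blocked by couple, and 397 and 393 in those fits without the 116 features at 0 throughout. Of the called features 46.8% were higher after quantile normalisation and 9.58% without it. Other causes of these differences were not tested. The replicate block changed no other call of a log2 change or rank among CHLM, AT1G74470 and AT5G63290. The fits over couple means without normalisation, with median centring, and with the block but without features at 0, and the paired rank test, were added after seeing the data. Values near 0 are bounds, which limits AT5G63290 most.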
